A study of Homo sapiens with 6 samples.

Results

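Prefoldin is a cytosolic chaperone built from 6 different subunits, and its genes were followed here across untreated and curcumin-treated HCT116 cells, an established human colon carcinoma line. The members were the rows of the deposited gene count table named PFDN1, PFDN2, VBP1 (the subunit also called prefoldin 3), PFDN4, PFDN5 and PFDN6, 6 of 35106 rows. Counts were present for 5 of the 6, and PFDN6 was listed at 0 in every library. The untreated group was wild-type HCT116 cells with the treatment label none (n = 3), and the treated group was the same wild-type cells given curcumin, the polyphenol of turmeric, at 30 µM for 24 h (n = 3). The labels write the dose unit in a form that reads as a length and name no solvent control. They do not say whether each replicate was its own culture. The p-values then reflect the spread among these 6 libraries and no more, and that spread may be technical.

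Prefoldin holds newly made polypeptides, above all actins and tubulins, at the tips of long coiled coils and passes them to TRiC, the ring-shaped chaperonin that closes around a substrate while it folds. VBP1 and PFDN5 are the alpha-class subunits at the centre of the complex, and PFDN1, PFDN2, PFDN4 and PFDN6 are the beta-class subunits around them. PFDN2 and PFDN6 also belong to a related prefoldin-like assembly with URI1, UXT and PDRG1, which works with the R2TP co-chaperone of HSP90 in putting together large complexes such as RNA polymerases. VBP1 was named for binding the tumour suppressor VHL, and PFDN5 is known as a binding partner of MYC.

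The subunits did not move as one after curcumin. PFDN5, PFDN2 and PFDN4 rose clearly, VBP1 rose less, and PFDN1 was not called and had the one negative fold change. Of the 5 subunits with counts, 4 were called higher and 0 lower by edgeR's quasi-likelihood test at a Benjamini-Hochberg adjusted p under 0.05 (0 lower also at an unadjusted p under 0.05, with DESeq2 and with limma-voom). Across all 13718 genes tested, 27.2% were called higher and 28.9% lower, 56.1% in either direction. The median log2 fold change was 1.47 over the 5 subunits and -0.04 over all genes tested. The groups did not overlap for the 4 subunits that rose, against 30.9% of all genes with treated libraries entirely above and 33.1% entirely below the untreated ones. A rise or fall is measured against the rest of each library's RNA, in CPM (counts scaled to the size of the library) after TMM scaling, which assumes that most genes do not change. In bulk RNA, fewer cells of a kind and less RNA per cell cannot be told apart.

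**Figure D1:**
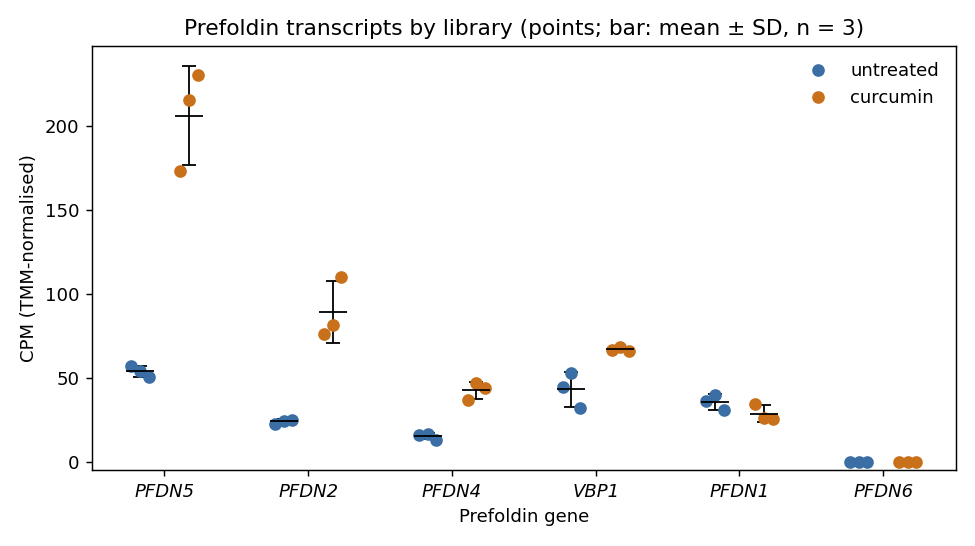
TMM-normalised CPM of each prefoldin gene in the 3 untreated (blue) and 3 curcumin-treated (orange) libraries, with the mean ± SD as black bars except for PFDN6, which is at 0 in all 6. Treated points lie above untreated ones for PFDN5, PFDN2, PFDN4 and VBP1, and the 2 groups overlap for PFDN1.

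Among the alpha class, PFDN5 was called higher with a large change. Its log2 fold change and that of PFDN2 differed by less than their standard errors, and their order turned without untreated replicate 3 or without curcumin replicate 2. The gene (ENSG00000123349) lies on chromosome 12 from 53295291 to 53299450 (GRCh38, GENCODE 29, as are the other gene positions here). PFDN5 stood at 57.2, 54.0 and 50.5 CPM in untreated replicates 1, 2 and 3 and at 173, 215 and 230.2 CPM in the treated ones. All treated libraries lay far above all untreated ones. The means were 53.9 ± 3.38 and 206 ± 29.6 CPM (SD, n = 3), and the log2 fold change was 1.93 ± 0.15 (SE, edgeR adjusted p = 1.4e-05). Raw counts behind these values ran from 1282 to 1509 and from 2315 to 2945. PFDN5 shares 796 bases of its locus with the antisense gene AC073611.1 on the opposite strand, which has no row of counts. The use of strand in counting is not given in the sources used here.

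VBP1 (ENSG00000155959, chromosome X, 155197007 to 155239817) rose the least of the called subunits. It stood at 44.6, 52.8 and 31.8 CPM in untreated replicates 1, 2 and 3 and at 66.5, 68.6 and 65.7 CPM in treated ones. The untreated libraries were widely spread and the treated ones close together, with no overlap between the groups. The means were 43.1 ± 10.6 and 66.9 ± 1.46 CPM (SD, n = 3), a log2 fold change of 0.64 ± 0.19 (edgeR adjusted p = 0.016). The call was lost without untreated replicate 3 (0.44, edgeR adjusted p = 0.052) and without curcumin replicate 2 (0.61, adjusted p = 0.056). VBP1 turned to -0.17 (adjusted p = 0.47) with library size alone, which shifted the median of all genes to -0.84. It was at 0.27 (adjusted p = 0.23) when the top 100 genes were left out of library sizes, and at 0.076 (adjusted p = 0.75) after removal of the trend over transcript length described further on.

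In the beta class, PFDN2 (ENSG00000143256, chromosome 1, 161100556 to 161118111) moved almost as far as PFDN5. Its levels were 22.7, 24.4 and 25.1 CPM in untreated replicates 1, 2 and 3 and 76.0, 81.7 and 110.0 CPM in treated ones. Curcumin replicate 3 was the highest, and every treated library was well above the untreated range. The mean went from 24.1 ± 1.25 to 89.2 ± 18.2 CPM (SD, n = 3), with a log2 fold change of 1.89 ± 0.18 (edgeR adjusted p = 2.5e-05).

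PFDN4 (ENSG00000101132, chromosome 20, 54207847 to 54228052) rose less than those but well clear of its untreated range. It held 16.2, 16.5 and 13.1 CPM in untreated replicates 1, 2 and 3 and 36.7, 46.7 and 44.0 CPM in treated ones, again without overlap. The mean rose from 15.3 ± 1.87 to 42.5 ± 5.19 CPM (SD, n = 3), a log2 fold change of 1.47 ± 0.18 (edgeR adjusted p = 9.1e-05). Its 2 processed pseudogenes, alike at 92.8% or more of the aligned bases, held at most 1 count in any library.

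PFDN1 (ENSG00000113068, chromosome 5, 140245039 to 140303121) stood apart from the rest. It was at 36.3, 39.9 and 30.8 CPM in untreated replicates 1, 2 and 3 and at 34.5, 26.3 and 25.3 CPM in treated ones. Curcumin replicate 1 lay inside the untreated range and the other treated libraries below it. The means of 35.7 ± 4.59 and 28.7 ± 5.07 CPM (SD, n = 3) gave a log2 fold change of -0.31 ± 0.18 with a 95% interval from -0.72 to 0.09 (edgeR adjusted p = 0.17). That interval lies wholly below those of PFDN5 (1.59 to 2.28), PFDN2 (1.50 to 2.28), PFDN4 (1.08 to 1.86) and VBP1 (0.22 to 1.06). PFDN1 was called lower with library size alone (-1.11, edgeR adjusted p = 0.00061), with the top 100 genes left out of library sizes (-0.67, adjusted p = 0.011) and after removal of the length trend (-1.04, adjusted p = 0.00092). Its raw counts ran from 782 to 970 without and from 324 to 462 with curcumin. PFDN1 shares 37014 bases of its locus with CYSTM1 on the opposite strand. CYSTM1 had 497 to 664 counts in untreated and 896 to 1103 in treated libraries, and the use of strand in counting is not given in the sources used here.

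PFDN6 (ENSG00000204220, chromosome 6, 33289302 to 33298401) had 0 counts in all 6 libraries. A count of 0 allows up to 3 counts per library, that is 0.114 to 0.123 CPM without and 0.224 to 0.238 CPM with curcumin, a limit that covers counting error only. PFDN6 lies in the major histocompatibility region, where other coding genes were listed at 0 as well. Of 49 other coding genes within 1 Mb of its start, 11 were at 0 throughout (22.4%), against 14.3% on the rest of chromosome 6 and 13.1% on other chromosomes. They included its neighbour WDR46, a nucleolar protein gene, and the zinc transporter gene SLC39A7, both chosen after their values were seen. Also among them were the class II genes HLA-DRA, HLA-DRB5, HLA-DQB1, HLA-DQA2, HLA-DQB2 and HLA-DMA, and BTNL2 and MLN. Such genes may be silent in this line, so the raised share does not tell true absence from loss in counting. TAP2, an antigen peptide transporter in the same stretch, was at 753 counts in untreated replicate 2 and 663 in curcumin replicate 1 and at 0 in the other 4 libraries. The longest PFDN6 transcript shares a run of 480 bases with RGL2, its neighbour on the opposite strand. The 0 of PFDN6 is given as listed and is not read as absence of the transcript, and its cause was not tested.

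The make-up of prefoldin counts within a library does not depend on scaling between libraries. PFDN5 took 32.3%, 28.8% and 33.3% of the summed prefoldin counts in untreated replicates 1, 2 and 3 and 44.7%, 49.1% and 48.4% in treated ones. PFDN2 took 14.2 ± 2.13% and 20.5 ± 2.37% (SD, n = 3) and PFDN4 8.88 ± 0.239% and 9.80 ± 0.754%. The share of PFDN1 was 20.5%, 21.3% and 20.33% in untreated and 8.93%, 5.99% and 5.33% in treated replicates 1, 2 and 3, and that of VBP1 24.8 ± 3.57% and 15.6 ± 1.68%. Each comparison reached a two-sided exact permutation p of 0.1 (adjusted p = 0.1 over the 5 subunits), the smallest that 3 against 3 libraries allow, so none could pass 0.05. The difference of PFDN4 turned from 0.92 to -0.19 percentage points when counts were divided by transcript length before taking shares. The alpha class together took 56.3 ± 1.67% and 63.0 ± 1.52%, with VBP1 lower and PFDN5 higher within it. These class shares hold nothing from PFDN6, a beta-class subunit listed at 0, so the alpha share may be too high.

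**Figure D2:**
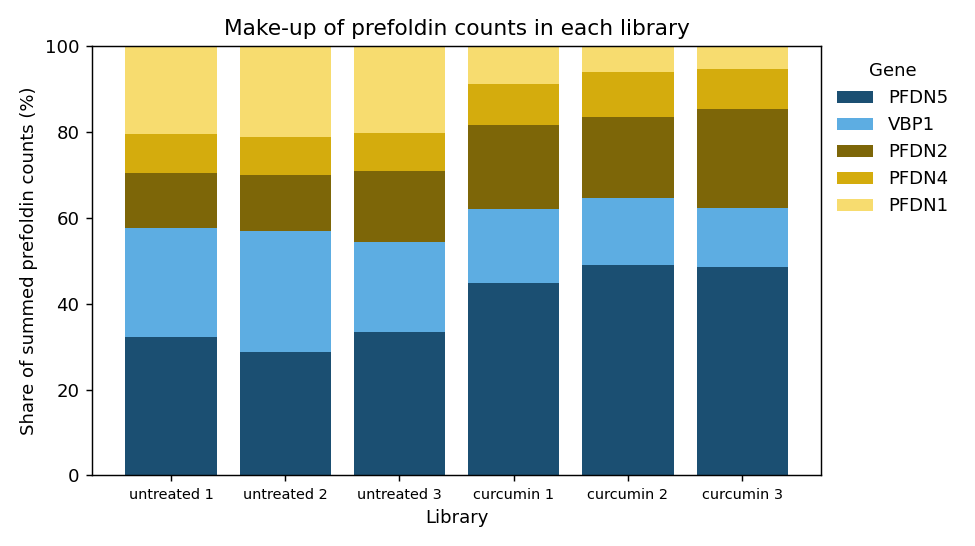
Share of the summed prefoldin counts taken by each gene (vertical axis, percent) in each of the 6 libraries (horizontal axis), alpha-class genes in blue and beta-class genes in yellow to brown. The pale top segment, PFDN1, is 20.33% or more in untreated and 8.93% or less in treated libraries, and the dark blue PFDN5 segment is 33.3% or less and 44.7% or more.

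Ratios between subunits put the same values pair by pair, over 10 pairs. The ratio of PFDN5 to PFDN1 counts was 1.58, 1.35 and 1.64 in untreated replicates 1, 2 and 3 and 5.01, 8.19 and 9.09 in treated ones, a shift of 2.25 ± 0.28 in log2 (SE; two-sided exact permutation p = 0.1, adjusted p = 0.125 over 10 pairs). The groups overlapped for PFDN5 with PFDN2 (2.25 ± 0.258 and 2.33 ± 0.275, exact permutation p = 0.7) and PFDN2 with PFDN4 (1.60 ± 0.276 and 2.11 ± 0.377, exact permutation p = 0.2). The ratio of VBP1 to PFDN1 was 1.20 ± 0.147 and 2.38 ± 0.391 (SD, n = 3; exact permutation p = 0.1).

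Levels of different genes were compared per kilobase of the longest coding transcript, 677 bases for PFDN2, 847 for PFDN5, 1352 for PFDN1, 1462 for PFDN4 and 1686 for VBP1. In untreated cells PFDN5 was highest at 59.6 to 67.6 CPM per kilobase, followed by PFDN2 at 33.5 to 37.1. PFDN1 (22.8 to 29.5) and VBP1 (18.9 to 31.3) overlapped and did not differ beyond their spread, and PFDN4 was lowest (8.99 to 11.3). In treated cells PFDN5 (204 to 272) and PFDN2 (112 to 162) stayed first and second. VBP1 came next at 39.0 to 40.7, and PFDN4 (25.1 to 32.0) and PFDN1 (18.7 to 25.5) overlapped at the low end.

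The summed level of the 5 subunits was 172 ± 18.7 CPM without curcumin and 433 ± 44.4 CPM with it (SD, n = 3; exact permutation p = 0.1), a ratio of 2.52. Scaled by library size alone, the sums were 227 ± 25.4 and 326 ± 14.8 CPM, a ratio of 1.44.

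Transcript length moved with the fold changes of all genes. All 5 subunits fall among the shortest 1 in 5 of the coding genes of at least 5 CPM, with transcripts of 207 to 2019 bases, whose median log2 fold change was 0.78 and of which 60.2% were called higher and 9.64% lower. Among 2129 coding genes of this length, PFDN5 and PFDN2 had a larger fold change than 92.1% and 91.5%, PFDN4 than 81.0%, VBP1 than 43.5% and PFDN1 than 14.7%. With each library's trend over length removed, PFDN5 rose by 0.84 (edgeR adjusted p = 0.0013), PFDN4 by 0.81 (0.0029) and PFDN2 by 0.61 (0.022). PFDN2 lost the most to that step, from 1.89. What part length plays in the subunits' changes was not tested beyond this.

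**Figure D3:**
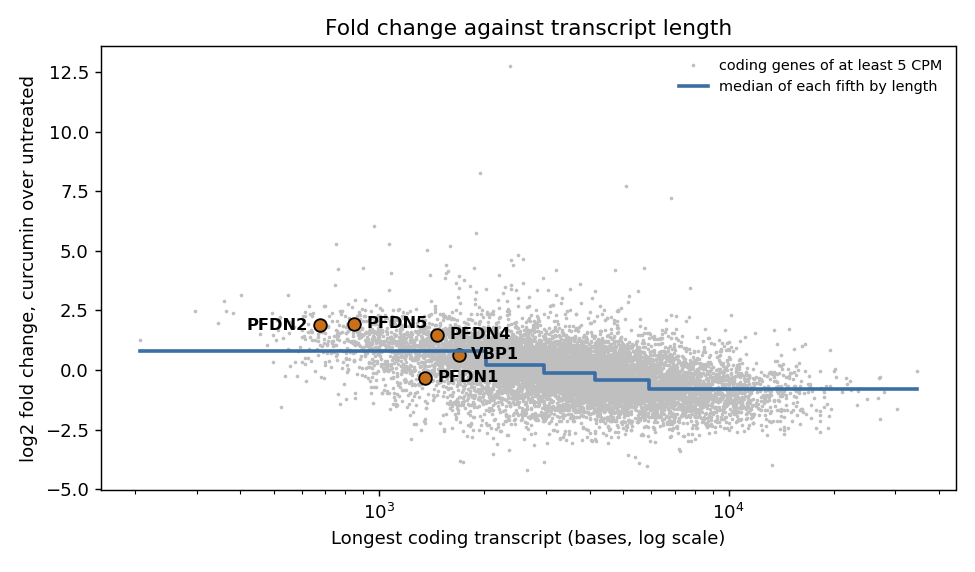
Log2 fold change (vertical axis) against the length of the longest coding transcript (horizontal axis, log scale) for coding genes of at least 5 CPM (grey), with the median of each of 5 equal bins by length (blue line) and the 5 prefoldin genes (orange). PFDN5, PFDN2 and PFDN4 lie above the median of 0.78 for genes of their length, while VBP1 lies slightly and PFDN1 well below it.

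**Figure D4:**
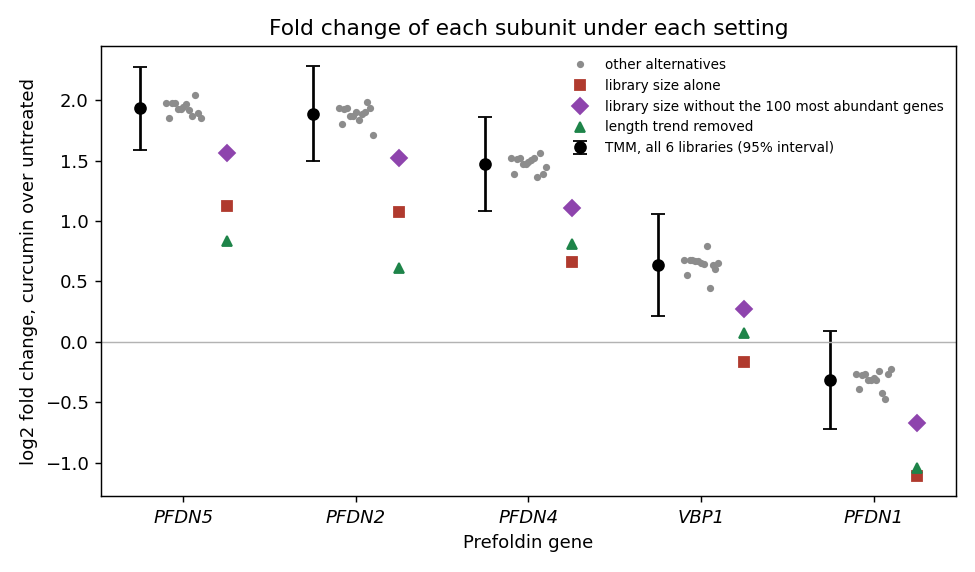
Log2 fold change of each subunit with TMM scaling and all 6 libraries (black, 95% interval) and under each alternative (grey and coloured marks). PFDN5, PFDN2 and PFDN4 stay above 0 under all of them, PFDN1 stays below 0, and VBP1 crosses 0 with library size alone.

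The promoter windows of PFDN1 and VBP1, the subunits that lagged behind, are shown as RefSeq gives them (GRCh38.p14), read 5′ to 3′ along each gene's strand and without bases that GENCODE places in exons of the gene. PFDN1 is on the minus strand at chr5:140303122-140303351, and the VBP1 window belongs to the most upstream of its 3 start sites in the table, on the plus strand at chrX:155216023-155216272. GENCODE starts VBP1 further upstream, at 155197007, so this window lies inside its gene span. Capitals mark a CCAAT box, the site known to bind NF-Y, in either orientation.
PFDN1: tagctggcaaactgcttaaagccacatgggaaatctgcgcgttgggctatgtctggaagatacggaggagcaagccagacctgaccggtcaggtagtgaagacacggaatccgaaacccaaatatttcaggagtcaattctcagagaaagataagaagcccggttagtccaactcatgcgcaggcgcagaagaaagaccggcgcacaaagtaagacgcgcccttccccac
VBP1: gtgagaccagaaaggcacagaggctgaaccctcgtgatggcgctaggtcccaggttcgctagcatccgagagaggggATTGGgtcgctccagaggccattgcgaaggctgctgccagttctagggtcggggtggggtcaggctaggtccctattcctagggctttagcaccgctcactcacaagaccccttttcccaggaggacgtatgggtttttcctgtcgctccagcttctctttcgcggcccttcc
Promoter entries were found for 5 of the 6 genes, 8 in all. PFDN2 had no entry and was not searched. The 250 bases upstream of the RefSeq start of each entry were searched on both strands. The letters sought were pairs of heat shock units (GAANNTTC or TTCNNGAA), the CCAAT box (CCAAT or ATTGG) and the core antioxidant response element (TGACNNNGC or GCNNNGTCA). PFDN1 and PFDN5 held none of these letters. PFDN4 had 1 CCAAT box at position -194 from the start site, and the VBP1 windows, which overlap, had 1 to 3 of them. Among the genes searched, a heat shock pair was found in PFDN6 only, at position -47 from one start and -51 from the other, which are the same bases. Of 35116 such windows in the table, 11.6% held a heat shock pair, 32.0% a CCAAT box and 10.9% an antioxidant element. GENCODE places all 250 bases of the PFDN5 and PFDN6 windows in exons of the gene, and all but 10 of the PFDN4 window. The PFDN4 box and the PFDN6 pair thus lie in exons by that annotation. A match is a description of the letters and not a site in use.

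At the next step of the pathway, of the 9 subunit genes of TRiC, 8 were called higher and 0 lower, beside 27.2% and 28.9% of all genes tested. The median log2 fold change was 1.19. At an unadjusted p under 0.05, with DESeq2 and with limma-voom, 9 were higher and 0 lower, and with library size alone 3 and 0. The gene not called was CCT6B (edgeR adjusted p = 0.054), at a low mean of 1.17 CPM without and 2.65 CPM with curcumin. CCT2 turned from 0.52 to -0.28 with library size alone (both genes were chosen after their values were seen). TCP1, the alpha subunit of the ring, rose from 264 ± 85.3 to 1717 ± 533 CPM (SD, n = 3), a log2 fold change of 2.70 ± 0.28 (edgeR adjusted p = 4.2e-05). CCT4, another ring subunit, rose by 1.51 ± 0.21 (edgeR adjusted p = 0.00022). Summed TRiC counts were 12.4, 14.7 and 11.4 times the summed prefoldin counts in untreated replicates 1, 2 and 3 and 14.0, 13.3 and 14.7 times in treated ones, which overlap (exact permutation p = 0.3, adjusted p = 0.3 over 4 ratios). Of 3 tested phosducin-like and related TRiC cofactors, 0 were called in either direction, beside 56.1% of all genes tested. There were 0 also at an unadjusted p under 0.05, with DESeq2 and with limma-voom. With library size alone 2 were lower, with the top 100 genes left out of library sizes 2, and after removal of the length trend 1. Leaving out 1 library at a time gave 0 to 1 lower.

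Of the 10 prefoldin-like and R2TP genes, 5 were called higher and 1 lower, beside 27.2% and 28.9% of all genes tested. The median log2 fold change was 0.48, and with library size alone 2 were called higher and 4 lower. UXT, a small prefoldin-like subunit, stood at 19.1, 15.4 and 18.3 CPM in untreated replicates 1, 2 and 3 and at 54.3, 67.6 and 65.3 CPM in treated ones, a log2 fold change of 1.83 ± 0.17 (edgeR adjusted p = 2.3e-05). PDRG1, its partner, rose by 1.74 ± 0.20 (edgeR adjusted p = 7.2e-05). URI1, the scaffold of that assembly and chosen after its values were seen, was at 48.5 ± 1.31 and 46.5 ± 6.89 CPM (SD, n = 3; log2 -0.06 ± 0.16, edgeR adjusted p = 0.76), and was called lower with library size alone (-0.86, adjusted p = 0.0015) and with the top 100 genes left out of library sizes (-0.42, adjusted p = 0.048). WDR92, an R2TP partner, fell by 0.94 on the log2 scale (± 0.29, edgeR adjusted p = 0.017), a call lost without untreated replicate 1 (adjusted p = 0.051). Against prefoldin, the summed counts of this list were 3.08 ± 0.0700 times in untreated and 1.99 ± 0.361 times in treated libraries (SD, n = 3; exact permutation p = 0.1, adjusted p = 0.13 over 4 ratios).

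A list of 22 genes held tubulins, actins and the actin-related proteins ACTR1A, ACTR1B, ACTR2 and ACTR3. Of these 22, 7 were called higher and 1 lower, beside 27.2% and 28.9% of all genes tested. The 7 became 3 without untreated replicate 1 and 4 without curcumin replicate 2. With library size alone 2 were higher and 12 lower, with the top 100 genes left out of library sizes 2 and 6, and after removal of the length trend 2 and 2. The median log2 fold change was 0.17, and -0.02 to 0.39 with 1 library left out, lowest without untreated replicate 3 and highest without untreated replicate 2. TUBB2A rose by 1.78 ± 0.22 (edgeR adjusted p = 0.00011) and its close copy TUBB2B by 2.33 ± 0.51 from a mean of 0.976 CPM (adjusted p = 0.0032). Reads of these 2 beta-tubulin genes may have been divided between them upstream, so both are uncertain. TUBD1, which encodes delta-tubulin of centrioles, fell by 1.42 on the log2 scale (± 0.27, adjusted p = 0.0015). Summed counts of this list were 55.2, 73.3 and 52.5 times the prefoldin sum in untreated replicates 1, 2 and 3 and 36.1, 33.2 and 29.4 times in treated ones. The groups are apart (exact permutation p = 0.1, adjusted p = 0.13 over 4 ratios), with untreated replicate 2 the highest.

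The tubulin cofactors TBCA to TBCE take tubulin on from TRiC, and TBCEL was listed with them. Of these 6 genes, 4 were called higher and 2 lower, beside 27.2% and 28.9% of all genes tested. The median log2 fold change was 0.76, and with library size alone 2 were called higher and 2 lower. TBCA and TBCB rose by 1.74 ± 0.17 and 1.49 ± 0.15 (edgeR adjusted p = 2.8e-05 and 3.1e-05). TBCC fell from 19.9 ± 1.52 to 7.34 ± 3.94 CPM (SD, n = 3; edgeR adjusted p = 0.0041). TBCEL, a tubulin-destabilising relative of TBCE, fell by 0.92 on the log2 scale (± 0.21, adjusted p = 0.0036), and was not called after removal of the length trend (adjusted p = 0.058). Among the binding partners, VHL fell by 1.96 on the log2 scale (± 0.22, edgeR adjusted p = 6.2e-05), from 80.3, 58.3 and 75.2 CPM in untreated replicates 1, 2 and 3 to 15.8, 14.999 and 23.9 CPM. MYC was at 285 ± 76.5 and 184 ± 67.0 CPM (SD, n = 3; log2 -0.63 ± 0.27, edgeR adjusted p = 0.067), with overlapping groups. MYC was called lower under other settings, among them library size alone (-1.45), no filter (-0.71) and leaving out untreated replicate 2 (-0.85) or curcumin replicate 3 (-0.97).

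**Figure D5:**
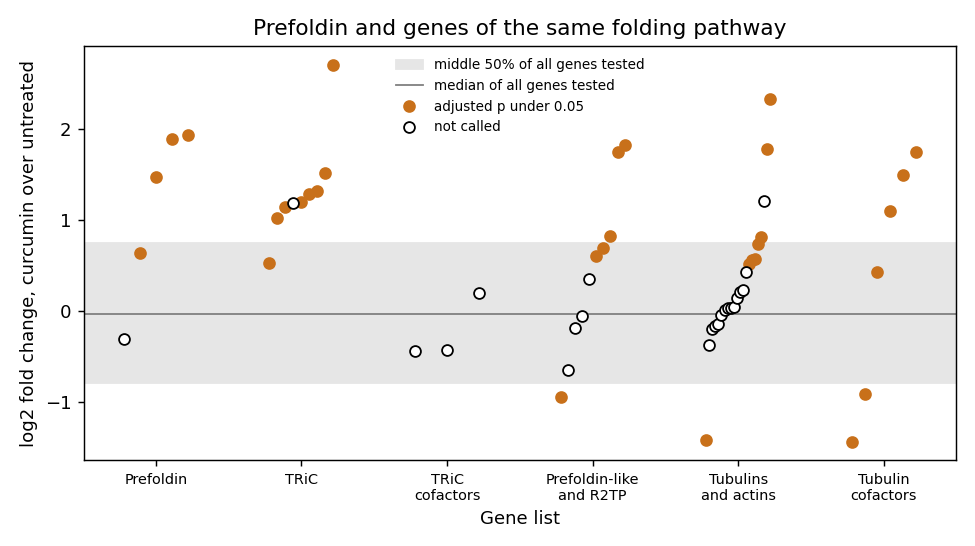
Log2 fold change (vertical axis) of the tested genes of prefoldin and 5 related lists (horizontal axis), filled orange where the edgeR adjusted p was under 0.05 and open where not, with the median (line) and the middle 50% (grey band) of all genes tested. All 9 TRiC genes lie above the median of all genes, while prefoldin, the prefoldin-like genes and the tubulin cofactors spread on both sides of it.

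By likeness to the mean profile of the 5 subunits over the 6 libraries (each standardised in log2 CPM), the closest of 10625 coding genes were DBI, MGST1, AIMP1, IFT122 and C1QBP, with Pearson r from 0.996 to 0.997, a description only. Such values are common with 6 libraries in 2 groups, and 862 genes had an r over 0.95. Of the subunits, VBP1 followed the mean profile at 0.97, PFDN4 at 0.96, PFDN5 at 0.93 and PFDN2 at 0.91, values to which each contributes, and PFDN1 ran against it at -0.43.

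Library totals ran from 16663562 to 20311769 counts. The 100 most abundant genes took 18.9% to 22.7% of untreated and 39.9% to 43.3% of treated counts, and TMM factors were 1.30 to 1.34 and 0.72 to 0.80. Of 8 colon epithelial markers, EPCAM, KRT8, KRT18 and KRT19 were called higher (log2 0.60 to 1.26), CDH1 was not called (0.16), and VIL1 and CDX1 stayed under 1 CPM. CDX2, an intestinal transcription factor, went the other way, from 25.4 ± 1.19 to 9.64 ± 2.96 CPM (SD, n = 3; edgeR adjusted p = 0.00058). Of 11 markers of leukocytes, endothelium and fibroblasts, 4 were abundant enough to test, and the list summed to 27.5 to 33.3 CPM without and 25.8 to 67.9 CPM with curcumin. COL1A1, a fibroblast collagen, made up most of the untreated sum (25.6 to 30.3 CPM) and was at 14.9 to 37.5 CPM with curcumin. CD3E was at 0 and PTPRC at no more than 0.556 CPM. The called genes were the endothelial gene PECAM1, at 0 to 0.157 CPM without and 6.65 to 25.02 CPM with curcumin, and the myeloid gene LYZ, at 0.0379 to 0.236 and 1.20 to 1.72 CPM. The part of these differences in the prefoldin results was not tested.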

How the data were processed

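RNA from 6 HCT116 libraries had been made into SMARTer mRNA-Seq libraries, per the labels' protocols. The authors deposited estimated counts per gene (expected counts, not all whole numbers), not scaled between libraries. The builds GRCm38 and mm10 appear in the submitters' processing notes, although all 35106 rows carry human Ensembl identifiers. For aligner, counter and annotation, nothing is given in the sources used here. Symbols, positions and lengths came from GENCODE 29 (35003 rows matched) and promoters from RefSeq.

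Counts were rounded (by at most 0.5), filtered with filterByExpr (minimum count 10, total 15), TMM-scaled and tested with edgeR 4.0.16 (R 4.3.3) over all 13718 genes. Errors of fold changes are standard errors. Alternatives were other scalings and filters, DESeq2 1.42.0, limma-voom (limma 3.58.1), a replicate block, coding genes only, loess removal of the length trend (span 0.3) and leaving out each library. No 2 replicates held like counts (chi-square per degree of freedom 11.1 or more).

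Members and lists were chosen with earlier results of these data known. Named were the members, up to 2 genes called higher and 2 lower with the smallest adjusted p per list, VHL and MYC, markers, and the 5 most alike genes; others were chosen after their values were seen.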

Additional observations from a re-analysis of the deposited data

How the results depend on the processing

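PFDN5, PFDN2 and PFDN4 were called higher under all 16 alternatives, with log2 fold changes of 0.84 to 2.04, 0.61 to 1.99 and 0.66 to 1.57. With library size alone, 1320 genes were called higher and 7744 lower, 1 subunit (PFDN1) was called lower (-1.11), VBP1 turned to -0.17, and the related lists had 9 genes higher and 20 lower in place of 24 and 4. With the top 100 genes left out of library sizes, these were 1 subunit lower (PFDN1 at -0.67), VBP1 at 0.27, and 15 and 12 list genes. With the length trend removed, 1 subunit was lower (PFDN1 at -1.04) and VBP1 was at 0.076. Leaving out 1 library at a time gave VBP1 0.44 to 0.79. The PFDN4 share changed by -0.19 percentage points when counts were divided by length. Of list genes called with TMM or with library size alone, the latter turned values above 0 below it for CCT2 (-0.28), RUVBL1 (-0.45), RUVBL2 (-0.12), PIH1D1 (-0.18, and -0.23 with the length trend removed), TUBA1C (-0.77), TUBA4A (-0.79), TUBB3 (-0.30), TUBB4B (-0.82), TUBB6 (-0.61), TUBG1 (-0.65), ACTB (-0.078), ACTG1 (-0.25), ACTR1A (-0.77), ACTR1B (-0.23) and TBCD (-0.38). It did so too for TUBA1B (-0.58), TXNDC9 (-0.60) and TUBE1 (-0.37), called with neither. The causes were not tested. Numbers shared between groups were not shown to pair libraries. Deviations of same-numbered libraries correlated at 0.04, 0.02 and 0.11. Each library was closest to its own number except untreated replicate 2, which was closer to curcumin replicate 1 (0.039). With the replicate number as a block, 4 subunits were called higher and 0 lower, VBP1 was at 0.67 and PFDN1 at -0.32, so the block changed no subunit's call, while MYC was called lower (-0.65). With 3 libraries a group, PFDN1's interval spans 0. PFDN6, listed at 0 in all 6 libraries, was not among the genes tested.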
